A study of Mus musculus with 8 samples.

Results

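The 37 genes described here are typical of endothelial cells, the flat cells that line blood vessels, and were chosen by name: surface proteins of cell junctions, growth factor and guidance receptors, a Notch ligand and receptor, secreted proteins, GTPase regulators and transcription factors. The 37 were chosen with earlier results of these data known, so their counts beside those of all genes are descriptions. Each of the 37 matched 1 Ensembl identifier among the 55421 in the deposited table. RNA sequencing covered 8 libraries of macrophages that were cultured out of bone marrow and taken at day 7 of differentiation. Of these, 4 came from cultures with the Baf60a KO genotype and 4 from WT cultures, both from mice that the series title calls C57. Baf60a is encoded by Smarcd1 and belongs to the SWI/SNF complexes, which move nucleosomes, and the comparison asks which transcripts differ between the genotypes. The sources used here do not give how Smarcd1 was deleted, in which cells, or the age and sex of the mice. They also leave unsaid whether replicates are separate animals or cultures, so the p-values rest on library-to-library spread that may in part be technical.

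Endothelial cells hold together through VE-cadherin and PECAM1 at their junctions, grow in response to VEGF and angiopoietins through tyrosine kinase receptors, and form arterial sprouts through DLL4 and Notch. Their identity is set by ETS factors, such as ERG and FLI1, and by the SOX7, SOX17 and SOX18 factors. Marrow is rich in sinusoidal vessels, and several of the genes are not restricted to endothelium: Tal1, Lyl1, Fli1 and Cd34 are also used by blood progenitors, Vwf by megakaryocytes, and Pecam1, Eng and S1pr1 by leukocytes.

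Endothelial transcripts were present in all 8 libraries and were higher in Baf60a KO than in WT for most of the 37 genes. In such bulk libraries, fewer cells of a type and less RNA per cell cannot be told apart. Values are TPM, transcript abundances corrected for transcript length that sum to the same total in every library. Of the 37 genes, 30 had TPM over 1 in at least 4 libraries and were tested with limma on log2(TPM + 1), on which fold changes of genes near 1 TPM come out too small. A gene was called at a Benjamini-Hochberg adjusted p under 0.05 over all 13933 genes tested. In Baf60a KO 8 of the 30 rose, 0 fell and 22 did not pass, while 5.61% of all genes tested were called in either direction, 4.40% higher and 1.21% lower. At an unadjusted p under 0.05 in limma, 21 of the 30 were higher and 0 lower, against 15.9% and 6.42% of all genes tested. The log2 fold change was above 0 for 29 of the 30, with a median of 0.31, and for 57.5% of all genes tested, with a median of 0.03. Every KO library lay above every WT library for 16 of the 30, and for 11.9% of all genes tested. Every KO library lay below every WT library for 0 of the 30, and for 3.96% of all genes tested. The 8 that rose were Arap3, Sox18, Mcam, Emcn, Plvap, Pecam1, Dll4 and Erg, with log2 fold changes between 0.51 and 0.80. Podxl passed the filter through the KO libraries alone, so its place among the 30 was tied to its direction. Dll4, Erg, Sox18, Sox17 and Rasip1 had WT libraries under 1 TPM and passed only with KO libraries counted in. With TPM over 1 required in all 8 libraries, none of these genes was tested. Of 24 endothelial genes then tested 7 were called higher, beside 642 of 12947 genes, and Robo4 and Mmrn2 were among the 7. Under a filter on the mean TPM over the 8 libraries, chosen after seeing the data, the same 30 genes were tested and 8 were called higher, beside 4.30% of 13953 genes. High KO values raise that mean as well.

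**Figure D1:**
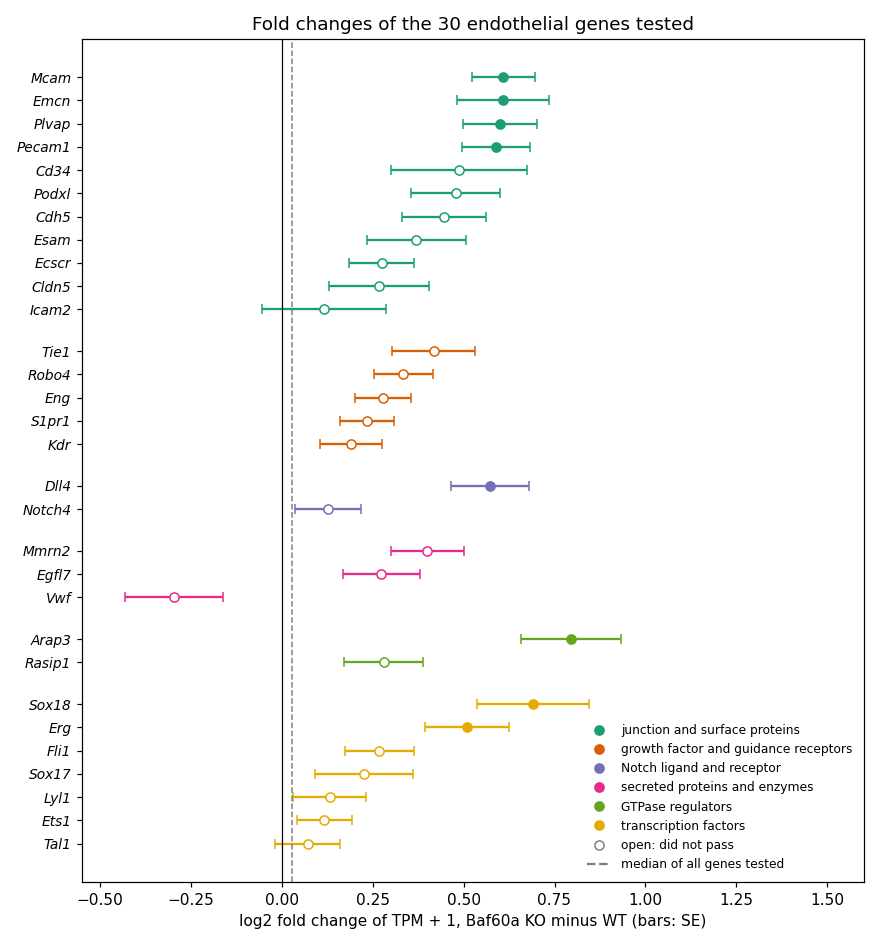
Log2 fold change of TPM + 1, Baf60a KO minus WT (horizontal axis), of the 30 endothelial genes tested, grouped by role, with SE bars; filled points were called and open points did not pass. The dashed line is the median of all genes tested (0.03), and 29 of the 30 points lie above 0, with Vwf (-0.30) below it.

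How many of these calls stood depended on the libraries used. The count of endothelial genes called higher was 2 without KO replicate 2, 3 without KO replicate 3 and 2 without KO replicate 4. It was 5 without WT replicate 2, 3 without WT replicate 4, and 14 when TPM was rescaled over protein-coding genes. Over all genes tested, the higher count fell as well, from 613 to 167, 166, 120, 384 and 178 without these libraries in the same order. The rescaling gave 842 over all genes. The endothelial count was 4 with no filter on low values, where 27510 genes were tested and 1.06% of them were called higher. In WT replicates 3 and 4 processed pseudogenes held 12.004% and 12.25% of TPM, against 6.78% and 7.62% in the other WT libraries and 7.48% to 8.38% in KO; without these libraries 2 endothelial genes, Mcam and Emcn, were called, and Arap3, Sox18, Plvap, Pecam1, Dll4 and Erg were not. Pecam1 and Mcam kept the call without each single library in turn, with limma adjusted p up to 0.0471 and 0.0429. Arap3 lost it without KO replicate 2 or 4, Plvap in 4, Dll4 in 5, Emcn in 6, and Sox18 and Erg in 7 of the 8 such fits. Their highest limma adjusted p in these fits was 0.0707 for Arap3, 0.0707 for Plvap and 0.0799 for Dll4, all without KO replicate 4, and 0.0944 for Emcn, 0.109 for Sox18 and 0.111 for Erg, all without KO replicate 3. The share of higher among all called genes also moved with the scaling, being 78.4% of 613 higher and 169 lower calls together in TPM as deposited, 55.3% after median-of-ratios scaling (503 higher and 406 lower), 63.4% after quantile normalization (440 and 254), 63.5% after rescaling over protein-coding genes (842 and 484) and 54.0% without WT replicates 3 and 4 (201 and 171). Endothelial genes were called higher in 8, 6, 14 and 2 cases under these 4 settings, and lower in 0 under each of them and in the fit as reported.

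Smarcd1 itself was lower in the libraries labelled Baf60a KO. It stood at 10.8, 10.3, 10.9 and 9.91 TPM in KO replicates 1 to 4, against 16.3, 14.3, 14.8 and 14.01 TPM in WT replicates 1 to 4. All KO libraries lay below all WT libraries (log2 fold change -0.47, SE 0.061, limma adjusted p = 0.00756). Values summed per gene cannot tell an intact transcript from one without the deleted exons.

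Junction and surface proteins held 4 of the 8 calls: of 12 genes, 4 rose, 7 did not pass and 1 was too low to be tested. Over all genes tested, limma called 4.40% higher. Pecam1 (chromosome 11, 106654217 to 106750628, build mm10), which joins endothelial cells at their borders, stood at 10.2, 13.1, 13.3 and 10.8 TPM in KO replicates 1 to 4, against 8.31, 7.28, 7.29 and 7.12 TPM in WT replicates 1 to 4. Its KO libraries all lay above the highest WT library, which was WT replicate 1 (log2 fold change 0.59, SE 0.094, limma adjusted p = 0.0144). Mcam (chromosome 9, 44134469 to 44142727), the adhesion molecule CD146, which pericytes and smooth muscle also carry, stood at 13.1, 17.1, 15.9 and 15.4 TPM in KO replicates 1 to 4, against 10.7, 8.90, 9.65 and 9.66 TPM in WT replicates 1 to 4. The groups did not overlap (log2 fold change 0.61, SE 0.086, limma adjusted p = 0.00942). Emcn (chromosome 3, 137341067 to 137432185) encodes endomucin, a sialomucin of capillary and venous endothelium, and stood at 7.58, 9.78, 9.61 and 8.38 TPM in KO replicates 1 to 4, against 5.45, 4.16, 6.65 and 5.68 TPM in WT replicates 1 to 4. Again no KO library reached down to the WT range (log2 fold change 0.61, SE 0.127, limma adjusted p = 0.0342). Plvap (chromosome 8, 71497765 to 71511752), which forms the diaphragms across endothelial pores, stood at 12.6, 14.1, 16.1 and 15.5 TPM in KO replicates 1 to 4, against 10.98, 8.09, 9.13 and 8.97 TPM in WT replicates 1 to 4. KO replicate 1 was the lowest of the KO libraries and WT replicate 1 the highest of the WT ones, as for Pecam1 and Mcam, and the groups were apart (log2 fold change 0.60, SE 0.102, limma adjusted p = 0.0192).

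The promoters of called genes are given here because 2 of these genes, Erg and Sox18, encode factors of the ETS and SOX families. Promoter windows of 250 bases before to 50 bases after the gene start were taken from RefSeq (build GRCm38.p6), which holds 24 windows for 19 of the 37 genes. They were searched on both strands for the ETS-type string AGGAAG and the SOX-type string AACAAT, whose matches do not overlap in the windows printed. AGGAAG is longer than the ETS core GGAA, which was not searched by itself. AGGAAG was found in 11 of the 24 windows (45.8%) and in 35.4% of all 32817 windows, and AACAAT in 3 of the 24 (12.5%) and in 10.7% of all windows. Of the 8 called genes, 4 had a window, with 6 windows in all. Of these 6 windows, 2 held AGGAAG and 2 held AACAAT. Emcn (chr3:137340828-137341127, plus strand) held 2 matches of AGGAAG and 1 of AACAAT. Of the 3 windows of Erg, the one at chr16:95459299-95459598 (minus strand) held 1 of each and the other 2 held none. Mcam (chr9:44134408-44134707, plus strand) and Dll4 (chr2:119325534-119325833, plus strand) held no match to either string, though both windows hold GGAA. In the sequences, 5′ to 3′ on the gene's strand, capitals mark the matches.
Emcn: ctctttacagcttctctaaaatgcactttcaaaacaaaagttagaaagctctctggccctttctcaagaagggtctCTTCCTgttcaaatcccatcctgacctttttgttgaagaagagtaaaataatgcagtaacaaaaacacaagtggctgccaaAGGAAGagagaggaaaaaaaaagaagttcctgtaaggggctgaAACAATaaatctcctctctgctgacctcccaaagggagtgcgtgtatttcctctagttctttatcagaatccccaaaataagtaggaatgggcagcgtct
Erg: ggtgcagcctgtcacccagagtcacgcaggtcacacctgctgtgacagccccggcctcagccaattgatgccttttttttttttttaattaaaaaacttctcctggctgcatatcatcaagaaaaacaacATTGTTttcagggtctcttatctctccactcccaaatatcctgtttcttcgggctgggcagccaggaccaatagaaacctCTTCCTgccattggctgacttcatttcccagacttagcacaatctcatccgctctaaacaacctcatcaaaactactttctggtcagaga
Mcam: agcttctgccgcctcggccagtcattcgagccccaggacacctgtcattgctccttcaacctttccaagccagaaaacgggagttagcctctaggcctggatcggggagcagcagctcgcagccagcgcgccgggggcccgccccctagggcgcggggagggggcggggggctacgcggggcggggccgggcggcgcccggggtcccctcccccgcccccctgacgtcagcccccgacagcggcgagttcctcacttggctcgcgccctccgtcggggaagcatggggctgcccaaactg
Dll4: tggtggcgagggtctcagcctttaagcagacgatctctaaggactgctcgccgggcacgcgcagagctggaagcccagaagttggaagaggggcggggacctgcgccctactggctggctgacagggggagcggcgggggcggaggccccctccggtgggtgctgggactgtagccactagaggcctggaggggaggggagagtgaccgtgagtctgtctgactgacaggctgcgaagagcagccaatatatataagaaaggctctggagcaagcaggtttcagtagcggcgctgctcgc
A match is a string of letters and not a bound site, and windows without one say nothing of the factors.

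Other genes of endothelial junctions and migration did not pass. Cdh5, which encodes VE-cadherin, stood at 12.8, 16.8, 15.7 and 14.1 TPM in KO replicates 1 to 4, against 13.2, 9.24, 10.4 and 9.92 TPM in WT replicates 1 to 4. WT replicate 1 lay above KO replicate 1, so the groups overlapped (log2 fold change 0.45, SE 0.116, limma adjusted p = 0.0604). Without WT replicate 1 Cdh5 was called higher, with a limma adjusted p of 0.0246. That was 1 of 2 such alternatives among 20, the other being the rescaling over protein-coding genes. In the rest it was not called, with limma adjusted p up to 0.166. Cldn5, the tight junction claudin of endothelium, stood at 4.09, 5.98, 5.69 and 5.11 TPM in KO replicates 1 to 4, against 5.40, 3.41, 3.85 and 4.06 TPM in WT replicates 1 to 4, with the same overlap of WT replicate 1 (log2 fold change 0.27, SE 0.138, limma adjusted p = 0.296). Esam, an immunoglobulin-type adhesion molecule of tight junctions, was measured at 3.85, 5.01, 6.01 and 4.32 TPM in KO replicates 1 to 4, against 3.97, 2.69, 3.78 and 3.44 TPM in WT replicates 1 to 4, and its groups overlapped too (log2 fold change 0.37, SE 0.136, limma adjusted p = 0.152). Ecscr, a surface protein that regulates endothelial migration, stood at 9.82, 11.03, 10.2 and 12.3 TPM in KO replicates 1 to 4, against 8.40, 10.01, 8.81 and 7.95 TPM in WT replicates 1 to 4. Only WT replicate 2 reached into its KO range (log2 fold change 0.27, SE 0.089, limma adjusted p = 0.111).

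The sialomucins Podxl and Cd34 were low. Podxl stood at 1.07, 1.91, 1.45 and 1.26 TPM in KO replicates 1 to 4, against 0.81, 0.80, 0.64 and 0.66 TPM in WT replicates 1 to 4. The groups were apart, with all KO libraries over 1 TPM and all WT libraries under it, which is how Podxl entered the test. It was not called (log2 fold change 0.48, SE 0.122, limma adjusted p = 0.0575), and its separation is tied to the filter. Cd34, a surface protein of endothelium and of blood progenitors, stood at 2.98, 4.47, 4.26 and 2.21 TPM in KO replicates 1 to 4, against 2.86, 1.99, 2.09 and 1.68 TPM in WT replicates 1 to 4. KO replicates 2 and 3 were the high libraries, and KO replicate 4 lay within the WT range (log2 fold change 0.49, SE 0.187, limma adjusted p = 0.169). Icam2, a ligand of leukocyte integrins, stood at 2.70, 3.75, 3.70 and 3.79 TPM in KO replicates 1 to 4, against 2.51, 4.55, 3.44 and 2.32 TPM in WT replicates 1 to 4. The WT libraries spanned the whole KO range (log2 fold change 0.12, SE 0.170, limma adjusted p = 0.762). Clec14a, a lectin-type receptor that binds multimerin 2, was at 0.08 to 0.23 TPM in KO and 0.03 to 0.11 TPM in WT, too low to be tested.

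**Figure D2:**
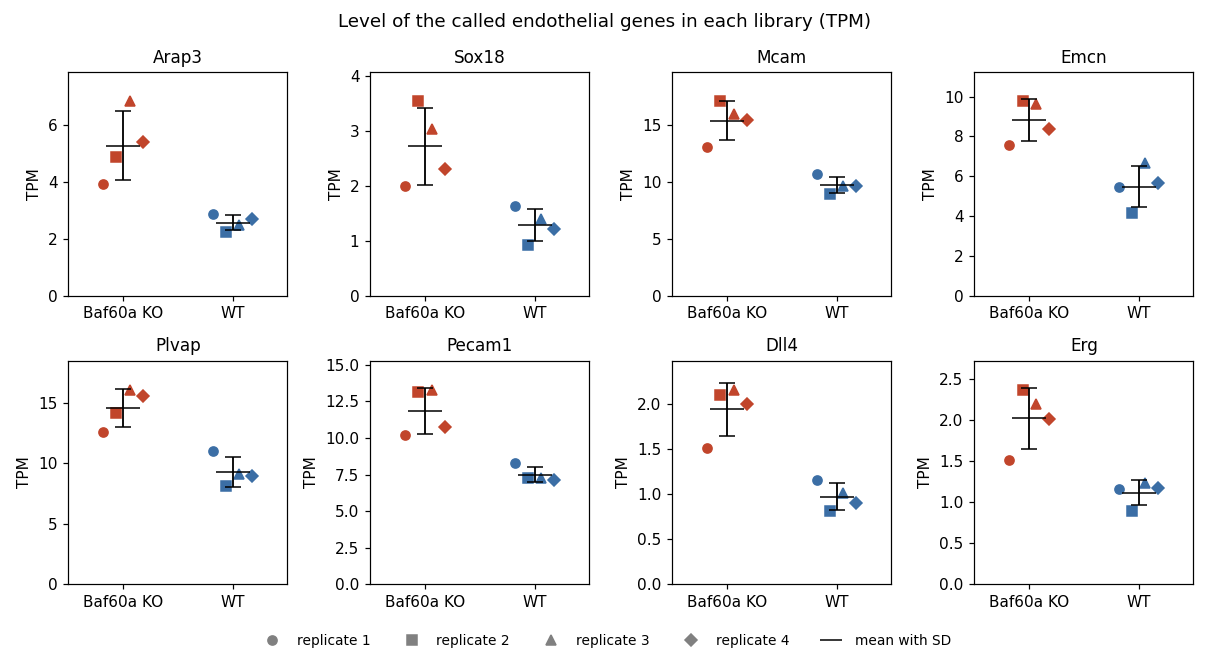
TPM (vertical axes, from 0) of the 8 called endothelial genes in each library, Baf60a KO left and WT right, with marker shapes for replicates and the mean with SD. In each panel the 4 KO libraries lie above the 4 WT libraries, and KO replicate 1 is the lowest KO library.

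Of 9 growth factor and guidance receptors, 0 were called by limma in either direction, 5 did not pass and 4 were too low to be tested. At an unadjusted p under 0.05 in limma, 4 of the 5 tested were higher, against 15.9% of all genes tested. In each of these 5 genes all KO libraries lay above all WT libraries, as in 11.9% of all genes tested. Eng, or endoglin, a co-receptor for BMP9 and TGF-beta that macrophages also carry, stood at 28.2, 29.6, 30.8 and 27.9 TPM in KO replicates 1 to 4, against 27.04, 22.3, 25.1 and 21.2 TPM in WT replicates 1 to 4 (log2 fold change 0.28, SE 0.077, limma adjusted p = 0.0727). S1pr1, the sphingosine-1-phosphate receptor that steadies vessel walls, stood at 24.5, 25.7, 29.9 and 25.7 TPM in KO replicates 1 to 4, against 22.2, 22.4, 24.2 and 20.3 TPM in WT replicates 1 to 4 (log2 fold change 0.24, SE 0.074, limma adjusted p = 0.104). These were the most abundant receptors of the set, per transcript length. Tie1, an orphan partner of the angiopoietin receptor, stood at 2.64, 3.88, 3.43 and 3.38 TPM in KO replicates 1 to 4, against 2.58, 1.82, 2.39 and 2.17 TPM in WT replicates 1 to 4 (log2 fold change 0.42, SE 0.115, limma adjusted p = 0.0708). Robo4, the endothelial member of the roundabout family, stood at 3.13, 3.04, 3.19 and 2.83 TPM in KO replicates 1 to 4, against 2.53, 2.06, 2.28 and 1.99 TPM in WT replicates 1 to 4 (log2 fold change 0.33, SE 0.081, limma adjusted p = 0.0504). Robo4 missed the threshold narrowly, and was called higher in 5 of 20 alternatives, such as without WT replicate 1 (limma adjusted p = 0.0455). In the rest it was not called, with limma adjusted p up to 0.129. Kdr, or VEGFR2, the main signalling receptor for VEGF, stood at 1.71, 1.72, 1.92 and 1.80 TPM in KO replicates 1 to 4, against 1.69, 1.32, 1.37 and 1.41 TPM in WT replicates 1 to 4. Its lowest KO library was just above WT replicate 1, the highest WT library (log2 fold change 0.19, SE 0.085, limma adjusted p = 0.232).

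The other vascular receptors were near the lower end of the table. Flt1, or VEGFR1, which monocytes also carry, was at 0.52 to 0.82 TPM in KO and 0.45 to 0.55 TPM in WT. Flt4, or VEGFR3, was at 0.54 to 0.77 TPM in KO and 0.50 to 0.64 TPM in WT, and Tek, the angiopoietin receptor TIE2, at 0.28 to 0.39 TPM in KO and 0.22 to 0.30 TPM in WT. In all 3 the groups overlapped. Aplnr, the apelin receptor, was at 0.04 to 0.10 TPM in KO and 0.02 to 0.15 TPM in WT, and was the 1 of the 7 untested genes whose mean was lower in KO. The other 6 had a higher mean in KO, and in 1 of them, Nos3, all KO libraries lay above all WT libraries.

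Dll4, the Notch ligand of arterial and sprouting endothelium (chromosome 2, 119325784 to 119335962), stood at 1.51, 2.10, 2.16 and 2.0 TPM in KO replicates 1 to 4, against 1.16, 0.82, 1.02 and 0.90 TPM in WT replicates 1 to 4. Its KO libraries were all above WT (log2 fold change 0.57, SE 0.107, limma adjusted p = 0.0260). A processed transcript on the opposite strand, Gm14207, shares 214 exonic bases with Dll4 and reached 1.11 TPM, so reads could be split between them. Notch4, an endothelial Notch receptor, stood at 1.71, 1.90, 1.65 and 1.44 TPM in KO replicates 1 to 4, against 1.61, 1.29, 1.51 and 1.39 TPM in WT replicates 1 to 4. KO replicate 4 lay within the WT range (log2 fold change 0.13, SE 0.091, limma adjusted p = 0.470).

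Secreted proteins and enzymes gave no call in limma, in either direction: of 4 genes 3 did not pass and 1 was not tested. At an unadjusted p under 0.05 in limma 2 were higher, against 15.9% of all genes tested. Egfl7, a secreted matrix protein of endothelium whose introns hold miR-126, stood at 14.2, 19.00, 18.5 and 18.4 TPM in KO replicates 1 to 4, against 14.01, 12.7, 16.5 and 13.9 TPM in WT replicates 1 to 4. KO replicate 1 lay within the WT range and the other KO libraries above it (log2 fold change 0.27, SE 0.106, limma adjusted p = 0.171). Egfl7 shares 64 exonic bases with Agpat2 on the opposite strand, a gene that reached 25.9 TPM. Mmrn2, or multimerin 2, an extracellular ligand of Clec14a, stood at 3.71, 5.28, 4.53 and 4.45 TPM in KO replicates 1 to 4, against 3.20, 3.39, 2.72 and 3.29 TPM in WT replicates 1 to 4. All KO libraries were above all WT libraries (log2 fold change 0.40, SE 0.101, limma adjusted p = 0.0564).

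Vwf, the platelet-binding protein stored in endothelial granules and made by megakaryocytes as well, went the other way. It stood at 10.03, 7.50, 7.47 and 8.99 TPM in KO replicates 1 to 4, against 13.6, 10.8, 9.23 and 9.22 TPM in WT replicates 1 to 4. The difference did not pass (log2 fold change -0.30, SE 0.135, limma adjusted p = 0.239), and the groups overlapped, with WT replicate 1 the highest of all libraries and KO replicate 1 the highest of KO. Beside it, a list of 10 megakaryocyte and platelet markers summed to 1068 to 1469 TPM in KO and 1468 to 2242 TPM in WT, nearly all of it Pf4 (1002 to 1398 TPM in KO, 1400 to 2163 TPM in WT), which macrophages also make. The platelet receptor subunits Gp1ba, Gp9 and Gp6 were at 0.00 to 0.28 TPM in KO and 0.01 to 1.31 TPM in WT, with overlapping groups. Gp1bb, another subunit, was at 0.48 to 1.11 TPM in KO and 0.00 to 0.42 TPM in WT, without overlap and too low to be tested. The part of this list in the Vwf values was not tested. In limma 0 of the 5 genes tested from this list were called in either direction. At an unadjusted p under 0.05 in limma, 3 were lower and 0 higher, against 6.42% and 15.9% of all genes tested. The 3 were Pf4, Ppbp and Itgb3, with log2 fold changes of -0.505, -0.499 and -0.172. Those of Itga2b and Treml1 were -0.238 and 0.141. Ppbp was at 0.55 to 1.91 TPM in KO and 1.80 to 2.84 TPM in WT. Nos3, the endothelial nitric oxide synthase, was at 0.62 to 0.83 TPM in KO and 0.40 to 0.57 TPM in WT, without overlap but under the filter; it shares 294 exonic bases with Atg9b, which reached 0.59 TPM.

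Arap3, a phosphoinositide-dependent GTPase activator for Arf6 and RhoA that is needed for vessel sprouting in mice (chromosome 18, 37972628 to 37998969), had the largest fold change of the 30 on the log2(TPM + 1) scale. It stood at 3.94, 4.89, 6.84 and 5.41 TPM in KO replicates 1 to 4, against 2.87, 2.22, 2.50 and 2.69 TPM in WT replicates 1 to 4. KO replicate 3 was the highest and all KO libraries lay above WT (log2 fold change 0.80, SE 0.137, limma adjusted p = 0.0198), a ratio of mean TPM of 2.05. The ratio was 2.11 for Sox18, and with a pseudocount of 0.1 the log2 fold change was 0.99 for Arap3 and 1.01 for Sox18. Rasip1, a Ras and Rap effector for the opening of the vessel lumen, stood at 1.38, 1.47, 1.61 and 1.10 TPM in KO replicates 1 to 4, against 1.11, 0.75, 1.08 and 0.93 TPM in WT replicates 1 to 4. KO replicate 4 lay just below the highest WT library (log2 fold change 0.28, SE 0.108, limma adjusted p = 0.171). Rasip1 shares 498 exonic bases with an antisense transcript, A030001D20Rik, that reached 1.32 TPM, so its low values are uncertain.

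Of the 8 transcription factors, 2 rose, 5 did not pass and 1 was not tested, beside 4.40% of all genes tested called higher. Sox18, a SOX factor of developing blood and lymph vessels (chromosome 2, 181669836 to 181671640), stood at 2.0, 3.54, 3.04 and 2.30 TPM in KO replicates 1 to 4, against 1.63, 0.93, 1.39 and 1.21 TPM in WT replicates 1 to 4. The groups were apart, with KO replicate 2 the highest (log2 fold change 0.69, SE 0.154, limma adjusted p = 0.0391). Erg, the ETS factor that maintains endothelial identity (chromosome 16, 95359169 to 95586593), stood at 1.51, 2.37, 2.20 and 2.01 TPM in KO replicates 1 to 4, against 1.16, 0.89, 1.23 and 1.18 TPM in WT replicates 1 to 4. All KO libraries were above all WT libraries (log2 fold change 0.51, SE 0.115, limma adjusted p = 0.0406). Sox17, a factor of arterial endothelium, stood at 1.39, 1.84, 2.06 and 1.57 TPM in KO replicates 1 to 4, against 1.55, 0.88, 1.24 and 1.66 TPM in WT replicates 1 to 4. WT replicate 4 lay above KO replicates 1 and 4 (log2 fold change 0.23, SE 0.135, limma adjusted p = 0.374), and Sox7, the third member of that family here, was at 0.28 to 0.55 TPM in KO and 0.20 to 0.38 TPM in WT.

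The other 4 factors, Fli1, Ets1, Tal1 and Lyl1, had log2 fold changes of 0.07 to 0.27, and 0 of them passed in limma in either direction. At an unadjusted p under 0.05 in limma, Fli1 was higher. Fli1, an ETS factor of endothelium, megakaryocytes and progenitors, stood at 11.1, 8.38, 8.69 and 10.2 TPM in KO replicates 1 to 4, against 8.18, 8.19, 7.74 and 6.94 TPM in WT replicates 1 to 4. Its groups did not overlap (log2 fold change 0.27, SE 0.094, limma adjusted p = 0.138). Ets1 stood at 10.7, 11.6, 11.02 and 10.5 TPM in KO replicates 1 to 4, against 9.14, 11.6, 9.58 and 9.92 TPM in WT replicates 1 to 4, with WT replicate 2 inside the KO range (log2 fold change 0.12, SE 0.075, limma adjusted p = 0.406). Tal1, a bHLH factor of blood and vessel development, stood at 3.65, 3.45, 3.31 and 4.02 TPM in KO replicates 1 to 4, against 3.64, 3.85, 3.02 and 3.07 TPM in WT replicates 1 to 4, and its WT replicates 1 and 2 lay among the KO libraries (log2 fold change 0.07, SE 0.090, limma adjusted p = 0.722). Its relative Lyl1, the most abundant of the 37, stood at 36.01, 32.2, 32.1 and 37.4 TPM in KO replicates 1 to 4, against 36.5, 32.6, 25.9 and 30.96 TPM in WT replicates 1 to 4. WT replicate 1 was above 3 KO libraries here, so the groups overlapped (log2 fold change 0.13, SE 0.10, limma adjusted p = 0.498). Without WT replicates 3 and 4 the fold changes of Tal1 and Lyl1 were -0.04 and -0.006.

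The endothelial genes also followed one another across the libraries within each group. KO replicate 1 was the lowest KO library in 20 of the 30 genes tested (66.7%), and in 24.4% of all genes tested. In WT, replicate 1 was the highest library in 19 of the 30 (63.3%, against 30.4% of all genes tested) and replicate 2 the lowest in 16 (53.3%, against 9.82% of all genes tested). Among the 8 called genes KO replicate 1 was the lowest KO library in 8 and WT replicate 2 the lowest WT library in 7. Fli1 and Vwf departed from this order, since KO replicate 1 was their highest KO library. These counts describe the 8 libraries, and the genes are not independent of one another.

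**Figure D3:**
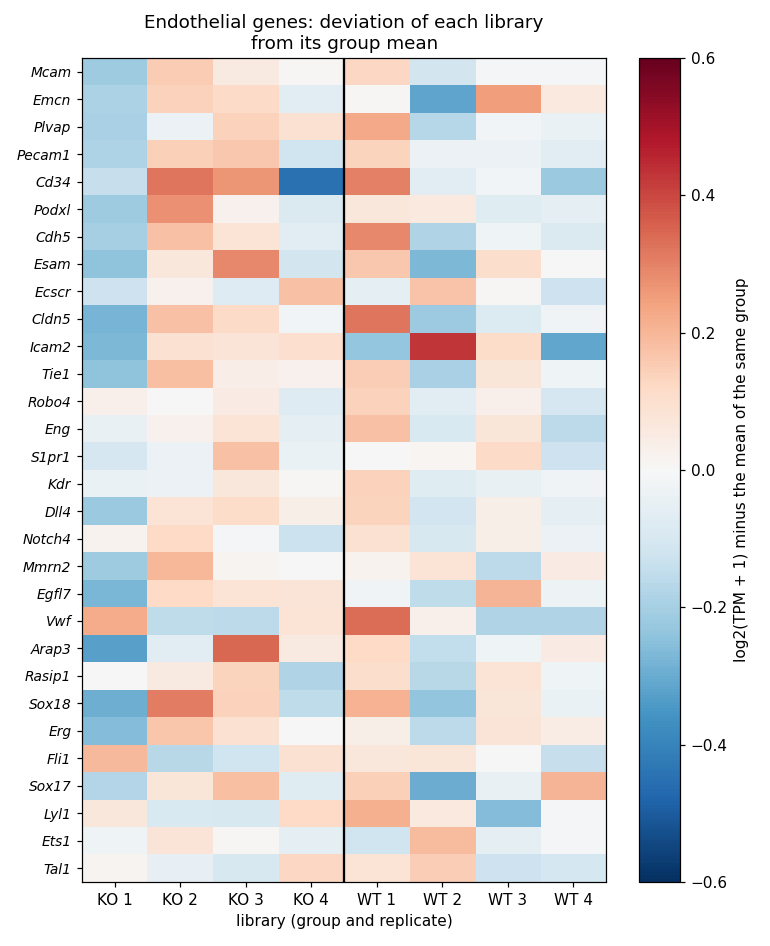
Log2(TPM + 1) of each of the 30 endothelial genes tested (rows, by role) in each library (columns, Baf60a KO then WT), minus the mean of the same group, red above and blue below. KO replicate 1 is blue and WT replicate 1 red for most rows, and WT replicate 2 is the lowest WT library in 16 of the 30.

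Summed over a list of 14 defining endothelial genes (Cdh5, Kdr, Tek, Tie1, Cldn5, Emcn, Robo4, Ecscr, Clec14a, Sox17, Sox18, Erg, Mmrn2 and Rasip1), the level was 52.1, 67.3, 63.7 and 59.8 TPM in KO replicates 1 to 4, against 48.3, 39.1, 43.7 and 41.8 TPM in WT replicates 1 to 4. The groups did not overlap, and none of the 14 genes was at 0 in all libraries, Clec14a being the lowest. Of the 12 defining genes tested, 3 rose and 9 did not pass, with a median log2 fold change of 0.37. Over all genes tested, 4.40% were called higher and the median was 0.03. The other 18 endothelial genes tested held 5 rises and had a median of 0.28.

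Other cell types were measured in the same libraries with lists of marker genes. Of all genes tested, limma called 4.40% higher and 1.21% lower. At an unadjusted p under 0.05 in limma, 15.9% of all genes tested were higher and 6.42% lower. Macrophage markers were abundant, as the label has it: 10 genes summed to 4718 to 5079 TPM in KO and 6145 to 7153 TPM in WT, with 2 rises (Cd68 and Itgam), 1 fall (Lyz2) and 7 genes that did not pass; at an unadjusted p under 0.05, 7 were higher and 1 lower. Lyz2, or lysozyme, set the direction of that sum (1927 ± 110.1 TPM in KO and 3993 ± 248 TPM in WT, SD, n = 4 each). Without it the other 9 genes summed to 3051, 2909, 3011 and 2990 TPM in KO replicates 1 to 4, against 2844, 2528, 2419 and 2377 TPM in WT replicates 1 to 4, so each KO library was above each WT library. Lyz2 was taken out after its values were seen. Most of the sum left was Cd68 (mean 1791 TPM in KO and 1472 TPM in WT). Mrc1 had a lower mean in KO (71.8 TPM, against 79.3 TPM in WT). Mesenchymal markers were abundant as well. Their 14 genes summed to 6538, 6851, 6952 and 6888 TPM in KO replicates 1 to 4, against 5767, 6156, 5616 and 6017 TPM in WT replicates 1 to 4; of 12 tested, 5 rose (Col1a1, Col3a1, Pdgfrb, Thy1 and Postn), 0 fell in limma and 7 did not pass, with 8 higher and 0 lower at an unadjusted p under 0.05. Smooth muscle and pericyte markers, a list of 9 that includes Mcam, summed to 2763 to 2924 TPM in KO and 2043 to 2317 TPM in WT, with 4 rises (Acta2, Cnn1, Mcam and Notch3) among 6 tested and 5 higher and 1 lower at an unadjusted p under 0.05. The lower one, Des, the muscle filament desmin, was below WT in all KO libraries, at 2.05 to 2.77 TPM in KO and 2.79 to 3.71 TPM in WT, and did not pass (log2 fold change -0.39, SE 0.103, limma adjusted p = 0.0627). None of the genes of these 3 lists was at 0 in all libraries. Stromal and endothelial sums, and that of the macrophage markers without Lyz2, were thus higher in KO, and the part of these cells in the endothelial values was not tested. Most of the mesenchymal sum was Col1a1, Col1a2 and Sparc, and nearly all of the smooth muscle sum was Acta2 and Tagln. Dcn (mean 3.96 TPM in KO and 5.92 TPM in WT) and Lum (0.22 and 0.35 TPM) were lower in KO, with overlapping groups. Cxcl12 was level (232 TPM in both groups). Myh11, Rgs5 and Cspg4 were under 1 TPM and not tested. Within KO, replicate 1 had the lowest mesenchymal and the lowest endothelial sum, whereas within WT replicate 2 had the highest mesenchymal and the lowest endothelial sum.

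Markers of further blood lineages gave no call in limma, in either direction, among 13 genes tested. At an unadjusted p under 0.05 in limma, 1 was higher and 2 lower, against 15.9% and 6.42% of all genes tested. Progenitor and mast cell markers, a list of 10 that includes Cd34, summed to 20.1 to 22.4 TPM in KO and 20.0 to 24.1 TPM in WT, neutrophil markers to 147 to 234 TPM in KO and 191 to 283 TPM in WT, and lymphocyte markers to 2.36 to 2.95 TPM in KO and 2.11 to 3.86 TPM in WT. Erythroid markers summed to 4.96 to 28.5 TPM in KO and 6.90 to 50.8 TPM in WT. In both groups replicate 1 held the most of them.

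**Figure D4:**
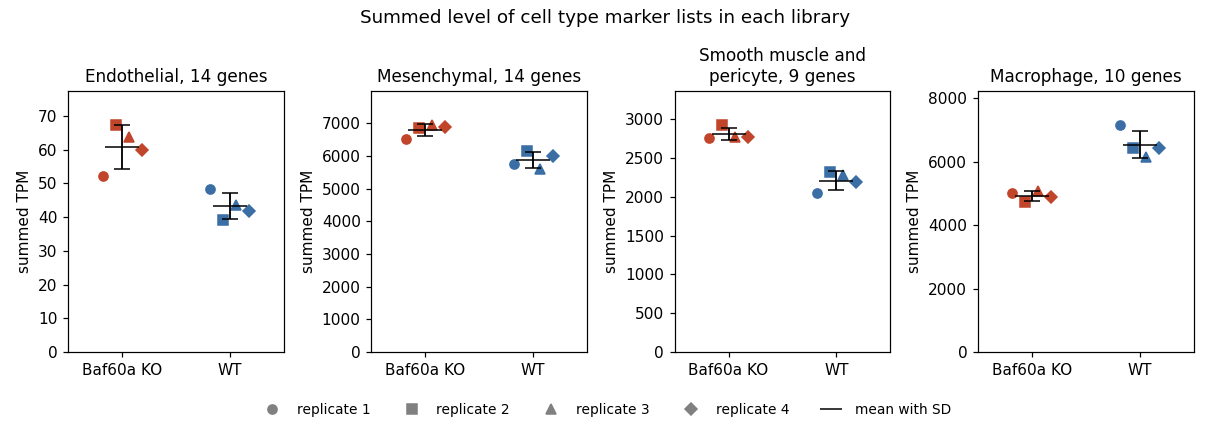
Summed TPM (vertical axes, from 0) of 4 marker lists in each library, Baf60a KO left and WT right, with marker shapes for replicates and the mean with SD. Endothelial, mesenchymal and smooth muscle sums are higher in each of the KO libraries than in the WT ones, and the macrophage sum is lower with Lyz2, though without Lyz2 the other 9 macrophage genes sum to 2909 to 3051 TPM in KO and 2377 to 2844 TPM in WT, most of it Cd68.

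Partner genes of the endothelial pathways were followed in 3 further lists of 70 genes in all: ligands and co-receptors, junction and small GTPase signalling, and transcription factors. Of 57 tested, 3 rose, 0 fell and 54 did not pass, with a median log2 fold change of 0.11, against 0.03 for all genes tested. The share called higher, 5.26%, was near the 4.40% of all genes tested, so the 3 calls are values of single genes and show nothing about the lists. In limma at an unadjusted p under 0.05, 24 were higher (42.1%, against 15.9% of all genes tested) and 2 lower (3.51%, against 6.42%). Apln, which encodes apelin, the ligand of the receptor that Aplnr encodes, rose: it stood at 12.9, 13.95, 13.8 and 13.4 TPM in KO replicates 1 to 4, against 9.39, 10.5, 10.3 and 9.42 TPM in WT replicates 1 to 4. The groups were apart (log2 fold change 0.41, SE 0.057, limma adjusted p = 0.00908), and the call stood without each single library, while Aplnr itself was at no more than 0.15 TPM. S1pr2, a second sphingosine-1-phosphate receptor, rose as well, at 20.96, 21.8, 22.7 and 22.7 TPM in KO replicates 1 to 4, against 18.97, 17.8, 17.4 and 16.9 TPM in WT replicates 1 to 4. No KO library lay within the WT range (log2 fold change 0.30, SE 0.052, limma adjusted p = 0.0208). Jup, or plakoglobin, which links cadherins to the cytoskeleton, stood at 7.19, 8.27, 8.14 and 8.05 TPM in KO replicates 1 to 4, against 6.12, 6.66, 5.65 and 5.22 TPM in WT replicates 1 to 4. It was called on groups that did not overlap (log2 fold change 0.37, SE 0.080, limma adjusted p = 0.0367).

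Without single libraries S1pr2 lost its call in 4 and Jup in 7 of the 8 fits, and the count of partner genes called higher ran between 1 and 5. It was 1 without KO replicate 2, 3 or 4 or WT replicate 4, and 5 without WT replicate 1. The most abundant partner of each list did not pass. Vegfa, the main VEGF ligand, stood at 196, 211, 199 and 215 TPM in KO replicates 1 to 4, against 239.8, 232, 200.4 and 211 TPM in WT replicates 1 to 4, with overlapping groups (log2 fold change -0.10, SE 0.063, limma adjusted p = 0.388). Rhoa, the small GTPase that ARAP3 acts on, stood at 332, 345, 351 and 326 TPM in KO replicates 1 to 4, against 315, 316, 299 and 318 TPM in WT replicates 1 to 4, its KO libraries above the WT ones (log2 fold change 0.12, SE 0.038, limma adjusted p = 0.119). Ldb1, a cofactor of TAL1 complexes, stood at 75.8, 76.1, 73.6 and 77.2 TPM in KO replicates 1 to 4, against 84.8, 82.5, 75.9 and 78.8 TPM in WT replicates 1 to 4, and KO replicates 2 and 4 lay within the WT range (log2 fold change -0.09, SE 0.044, limma adjusted p = 0.289). The BMP ligands Gdf2 and Bmp10 were listed at 0 in all libraries.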

How the data were processed

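The deposited table holds TPM per gene, made by the authors with Salmon 1.2.0 on mm10, per the submitters' processing notes; the unit was read from the values, which sum to 1000000 in each library within rounding. Read counts are not part of the table, so depth is unknown and no counting interval can be given. All 8 sample columns were matched to the labels by name (0 left unmatched). Symbols and coordinates came from GENCODE M21, which matched 55240 of 55421 identifiers; the 181 others held 0.0140% to 0.0293% of TPM.

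The test used limma 3.58.1 (R 4.3.3) with its trend option on log2(TPM + 1), Baf60a KO minus WT, without further covariates. It covered every gene whose TPM was over 1 in 4 or more libraries. P-values were adjusted by Benjamini-Hochberg over all 13933 genes, and called under 0.05. The procedure was tested on simulated data. The endothelial genes, partner lists and cell type lists were chosen with earlier results of these data known, so their counts are descriptions and no list was tested. Values are given per library for genes with a mean of at least 1 TPM in either group and for called genes, and for called and most abundant partner genes. Overlapping exons were read from the annotation; transcripts were compared with BLAST 2.17.0 (at least 95% identity over 100 bases). Whether counting used strand is not given in the sources used here. 1 marker gene is not reported here. Other pseudocounts, filters, scalings and library weights, a replicate block and left-out libraries were tried.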

Additional observations from a re-analysis of the deposited data

Results flagged for a closer look

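In groups of 4 libraries, the highest or lowest library was set against the other 3 by Dixon's test at its 95% critical value. Of 120 such groups examined, 7 held a library that stood apart, and chance alone marks about 1 group in 20.

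Among the endothelial genes, Egfl7 was at 14.21 TPM in KO replicate 1, while the other KO libraries had 18.40 to 19.00 TPM. Icam2 was at 2.70 TPM in KO replicate 1, below the 3.70 to 3.79 TPM of the other KO libraries. Clec14a was at 0.23 TPM in KO replicate 2, against 0.08 to 0.09 TPM in the other KO libraries. Pecam1 was at 8.31 TPM in WT replicate 1, above the other WT libraries at 7.12 to 7.29 TPM, and this library was still below all KO libraries.

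Among the marker lists, the megakaryocyte and platelet sum was 1068 TPM in KO replicate 3, below 1425 to 1469 TPM in the other KO libraries. The smooth muscle and pericyte sum was 2924 TPM in KO replicate 2, above 2763 to 2776 TPM in the other KO libraries. The lymphocyte sum was 2.11 TPM in WT replicate 4, below 3.76 to 3.86 TPM in the other WT libraries.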

How the results depend on the processing

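The count of endothelial genes called higher, 8 as reported, was 4 with no filter on low values, 14 after rescaling TPM over protein-coding genes, 2 without WT replicates 3 and 4, and 2 to 9 with single libraries left out; the count called lower was 0 in each of these. For the partner genes, 3 higher and 0 lower as reported, the higher count was 6 after rescaling over protein-coding genes, 1 without WT replicates 3 and 4 and 1 to 5 with single libraries left out. Their lower count was 1 after median-of-ratios scaling, 2 after rescaling over protein-coding genes and 0 to 1 with single libraries left out. Over all genes, the higher count was 292 with no filter, 201 without WT replicates 3 and 4 and 120 to 532 with single libraries left out. The lower count of all genes was 72 with no filter, 406 after median-of-ratios scaling, 254 after quantile normalization, 484 after rescaling over protein-coding genes and 36 to 235 with single libraries left out. Without a filter, limma was fitted and its p-values adjusted over 27510 genes in place of 13933. The cause of the change in counts was not tested for any setting. Without WT replicates 3 and 4 the log2 fold changes of Tal1 (-0.044) and Lyl1 (-0.006) changed sign. Deviations from the group mean in same-numbered libraries of KO and WT had correlations of -0.113, 0.012, 0.008 and -0.016 for numbers 1 to 4. Differently numbered libraries had correlations of -0.133 to 0.107. The labels do not say whether the numbers pair cultures, and correlations over so few libraries cannot decide it. With the replicate block, limma called 0 endothelial genes in either direction, 1 partner gene higher, and 146 genes higher and 63 lower over all genes. A filter on the mean over the 8 libraries, chosen after seeing the data, left 8 endothelial genes called higher. Depth is unknown, so how far read numbers limit the genes under 1 TPM cannot be given.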

Other observations

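Markers of lymphatic and sinusoidal endothelium, a list of 8 genes that includes Flt4, were measured as well and gave 0 calls in limma in either direction among 4 genes tested, with 1 higher (Pdpn) and 0 lower at an unadjusted p under 0.05. The list summed to 491.8 to 546.5 TPM in Baf60a KO and 511.9 to 650.2 TPM in WT, nearly all of it Fabp4, a fatty acid binding protein that macrophages also make (440.7 to 500.4 TPM in KO and 474 to 607 TPM in WT). Pdpn, or podoplanin, which stromal cells carry too, averaged 25.6 ± 1.74 TPM in KO and 22.8 ± 1.01 TPM in WT (SD, n = 4 each), with a limma adjusted p of 0.156. Stab2, a scavenger receptor of sinusoids, stood at 0.92, 1.35, 1.41 and 1.70 TPM in KO replicates 1 to 4, against 0.84, 1.33, 0.79 and 1.29 TPM in WT replicates 1 to 4, with overlapping groups. Lyve1, the hyaluronan receptor of lymphatic vessels, stood at 0.16, 0.26, 0.38 and 0.45 TPM in KO replicates 1 to 4, against 0.21, 0.11, 0.10 and 0.06 TPM in WT replicates 1 to 4, and was too low to be tested. Prox1, the factor that sets lymphatic identity, reached no more than 0.12 TPM in KO and 0.07 TPM in WT, and Clec4g, a lectin of liver sinusoids, was listed at 0 in all libraries.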
